A study of Danio rerio with 6 samples.

Results

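Complement genes were followed in whole zebrafish embryos given a morpholino against wbp11, a gene of the pre-mRNA splicing machinery, or a control morpholino. The genes were chosen by name, with earlier results of these data known: cfb, c3a.1, c3a.2, c3a.3, c4b, c5, c6, c7b, c8a and c9. The expression table held 11 records with these 10 names, of 25432 records in all, because c6 was the name of 2 records. Gene-name tables give these as c6.1 (ENSDARG00000093052) and c6.2 (ENSDARG00000057113), and those names are used here. The libraries came from wbp11-MO embryos (3 pools) and control-MO embryos (3 pools), all at 72 hours post fertilization, with 50 embryos in each pool, and the labels give no strain, allele or transgene for either group. Messenger RNA was captured through its poly(A) tail and sequenced. Morpholinos are synthetic antisense oligomers that interfere with translation or splicing of 1 transcript, and the labels do not say which applies here. Their action lasts only as long as the injected material.

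Complement is a cascade of plasma proteins, made largely by the liver, that marks microbes and damaged cells for uptake and can open their membranes. Antibody-bound C1q, sugar-binding lectins with their proteases, and the factor B route each lead to cleavage of C3, whose large fragment binds covalently to nearby surfaces. Cleavage of C5 then starts the assembly of C6, C7, C8 and C9 into a membrane pore. In mammals several complement genes are acute-phase genes, which hepatocytes express more strongly after injury or infection, and zebrafish carry extra copies of C3, C4, C6 and C7.

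Library totals lay between 11219706 and 13669995 counted reads, and no library stood apart, with Pearson correlations of log CPM from 0.985 to 0.988 within groups and from 0.894 to 0.904 across groups. CPM are gene counts scaled to a common library depth. Most of the transcriptome differed between the groups: of 20012 genes tested, 61.7% were called at an adjusted p under 0.05 (edgeR quasi-likelihood test), 30.5% higher and 31.2% lower in wbp11-MO embryos, and the groups did not overlap in CPM for 65.4%. The targeted gene was not lower in the libraries labelled wbp11-MO, and for both of its records every wbp11-MO pool was above every control-MO pool. Its record on chromosome 3 averaged 24.7 CPM in wbp11-MO and 14.9 CPM in control-MO pools (log2 fold change 0.72, edgeR adjusted p = 4.7e-06). A second record averaged 10.1 CPM in wbp11-MO and 8.12 CPM in control-MO pools (log2 fold change 0.30, edgeR adjusted p = 0.10). A morpholino need not lower its target's transcript, so these levels do not check the labels.

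Most of the named complement genes were higher in wbp11-MO embryos. All 11 records passed the filter on low counts. Of these, 7 rose, namely cfb, c3a.1, c4b, c6.1, c6.2, c7b and c9, which is 63.6% against 30.5% of all genes. The falls were c3a.2 and c8a, or 18.2% of the records against 31.2% of all genes. Neither c3a.3 nor c5 was called. The groups did not overlap in 9 of the 11 records, or 81.8%, against 65.4% of all genes. The median log2 fold change of the records was 0.78, and that of all tested genes was 0.0013. Because of how these genes were chosen, the shares describe the 11 records and not the pathway. Over all 41 tested complement genes 34.1% were higher and 34.1% lower, with a median log2 fold change of 0.0026. Rises of at least 2-fold were called for 5 of the 11 records, where 5.9% of all genes passed the same criterion. Falls of that size were called for 18.2% of the records against 14.3% of all genes, which is near the same share. Summed over the 11 records, complement transcripts stood at 948, 1021 and 1149 CPM in the wbp11-MO pools, against 588, 610.3 and 578 CPM in the control-MO pools, 1.76-fold higher in wbp11-MO. Most of this sum came from a few genes, since c3a.1, c9 and cfb together made up 74.4% to 76.9% of it in wbp11-MO and 71.2% to 72.3% in control-MO libraries. Whole embryos were sequenced, so a change in the number of cells that express a gene and a change in its RNA per cell cannot be told apart.

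**Figure D1:**
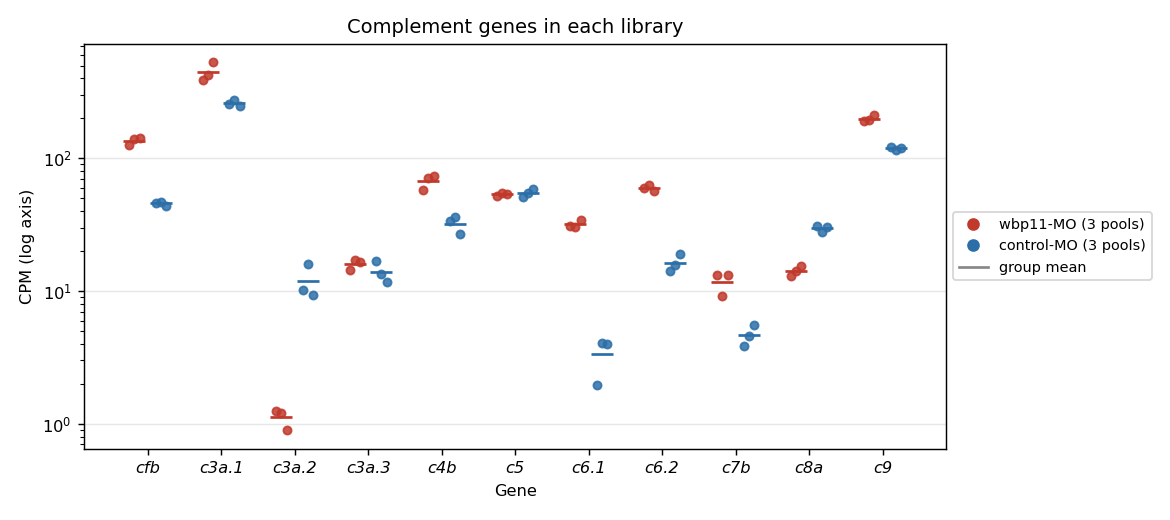
CPM on a log axis of the 11 complement records in each library, with wbp11-MO pools in red to the left of control-MO pools in blue; points are pools and bars are means of 3. The groups are apart for 9 records and overlap for c3a.3 and c5.

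The alternative pathway is represented by cfb (ENSDARG00000055278, chromosome 21, 27416284 to 27431397, GRCz11), which encodes factor B, the serine protease that forms the C3-cleaving enzyme together with C3b. It stood at 125.3, 138.8 and 143.3 CPM in the wbp11-MO pools, against 46.2, 47.0 and 44.1 CPM in the control-MO pools. Every wbp11-MO pool was above every control-MO pool, and the means, 135.8 ± 9.40 CPM in wbp11-MO and 45.8 ± 1.49 CPM in control-MO pools (SD, n = 3 each), differed 2.97-fold. The log2 fold change was 1.57 ± 0.06 (SE, adjusted p = 2.6e-19 by edgeR).

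The partners of factor B in this route, factor D and properdin, were not called higher. The gene cfd, which encodes factor D, the protease that cleaves factor B, stood at 45.1 ± 3.36 CPM in wbp11-MO and 45.0 ± 1.68 CPM in control-MO pools (SD, n = 3 each), with a log2 fold change of 0.0026 ± 0.077 (SE, adjusted p = 0.98 by edgeR). Properdin, which stabilises the C3-cleaving enzyme and is encoded by cfp, was lower, with a log2 fold change of -0.80 ± 0.16 (SE, adjusted p = 5.6e-05 by edgeR). On the FPKM scale, which divides by gene length, the ratio of cfb to cfd within a library was 1.02, 1.23 and 1.1 in wbp11-MO and 0.375, 0.403 and 0.352 in control-MO pools. The ratio of cfb to cfh, the gene of the inhibitor factor H, was 2.15, 2.52 and 2.33 in wbp11-MO and 0.707, 0.641 and 0.631 in control-MO pools. Both ratios were higher in every wbp11-MO pool. For each of the 10 ratios computed between complement genes the groups were apart, with an exact two-sided permutation p of 0.10. That is the smallest p that 3 pools against 3 can give and is also the value after adjustment over the 10. The pairs were picked by hand, and most join genes with different calls. Their separation was thus largely built in, and the share over all gene pairs was not computed.

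C3 is the protein on which all routes meet, and its copies on chromosome 1 moved in different directions. The most abundant, c3a.1 (ENSDARG00000012694, 56130222 to 56176976), stood at 389.4, 426.2 and 527.9 CPM in wbp11-MO pools, against 257.2, 274.5 and 249.0 CPM in control-MO pools. The groups were apart, wbp11-MO replicate 3 being the highest, and the log2 fold change was 0.78 ± 0.07 (SE, adjusted p = 3.1e-11 by edgeR). The copy c3a.2 (ENSDARG00000087359, 56229674 to 56266731) went the other way. It had 17, 15 and 11 counts in the wbp11-MO libraries, against 140, 187 and 129 counts in the control-MO libraries. In CPM this was 1.12 ± 0.20 in wbp11-MO and 11.9 ± 3.57 in control-MO pools (SD, n = 3 each), 10.6-fold lower in wbp11-MO pools, with a log2 fold change of -3.38 ± 0.26 (SE, adjusted p = 1.1e-12 by edgeR). It was the largest fall among the 11 records, and 1.36% of all tested genes had a lower fold change.

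The next copy along the chromosome, c3a.3 (ENSDARG00000052207, 56274613 to 56320569), begins 7881 bases after the end of c3a.2 and was not called. Its values of 14.4, 17.1 and 16.6 CPM in wbp11-MO pools overlapped those of 16.8, 13.4 and 11.7 CPM in control-MO pools (log2 fold change 0.20 ± 0.14 SE, edgeR adjusted p = 0.22). Without control-MO replicate 1, its highest control, it passed the threshold at a log2 fold change of 0.36 (adjusted p = 0.042 by edgeR, where the alternatives that keep the copies apart ranged from 0.042 to 0.67). Within a library, the FPKM ratio of c3a.3 to c3a.2 was 11.4, 14.0 and 18.4 in wbp11-MO and 1.64, 0.833 and 1.23 in control-MO pools, so that c3a.2 stood far below its neighbour in wbp11-MO pools and close to it in control-MO pools.

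Copies of C3 outside the named genes divided too. The copy c3a.6, on the same chromosome, stood at 53.1 ± 2.63 CPM in wbp11-MO and 23.1 ± 1.42 CPM in control-MO pools (log2 fold change 1.19 ± 0.08 SE, edgeR adjusted p = 1.4e-13). Both copies on chromosome 22 fell: c3b.1 averaged 43.3 ± 4.05 CPM in wbp11-MO and 66.3 ± 2.19 CPM in control-MO pools, with a log2 fold change of -0.61, and c3b.2 averaged 9.79 ± 0.46 CPM in wbp11-MO and 21.6 ± 2.1 CPM in control-MO pools, with a log2 fold change of -1.14. Of all counts on the 8 C3 copies, c3a.1 took 76.9% to 80.2% in wbp11-MO and 65.0% to 65.8% in control-MO libraries. The share of c3a.2 was 0.248%, 0.219% and 0.136% in wbp11-MO libraries, against 2.60%, 3.82% and 2.46% in control-MO libraries. The 95% Wilson intervals of these c3a.2 shares, which cover counting error only, ran from 0.0758% to 0.398% over the wbp11-MO libraries and from 2.07% to 4.40% over the control-MO libraries. The C3 copies are related in sequence, and how reads that match several of them were counted is not given in the sources used here, so the split between copies is uncertain. With c3a.1, c3a.2 and c3a.3 summed into 1 record, the log2 fold change was 0.70 ± 0.07 (SE, adjusted p = 2.9e-10 by edgeR). Its direction was that of c3a.1, which holds most of these counts. Over all 8 C3 copies the sum averaged 572 CPM in wbp11-MO and 398 CPM in control-MO pools, 1.44-fold higher in wbp11-MO. The sum of c3b.1 and c3b.2 averaged 53.1 CPM in wbp11-MO and 87.9 CPM in control-MO pools.

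**Figure D2:**
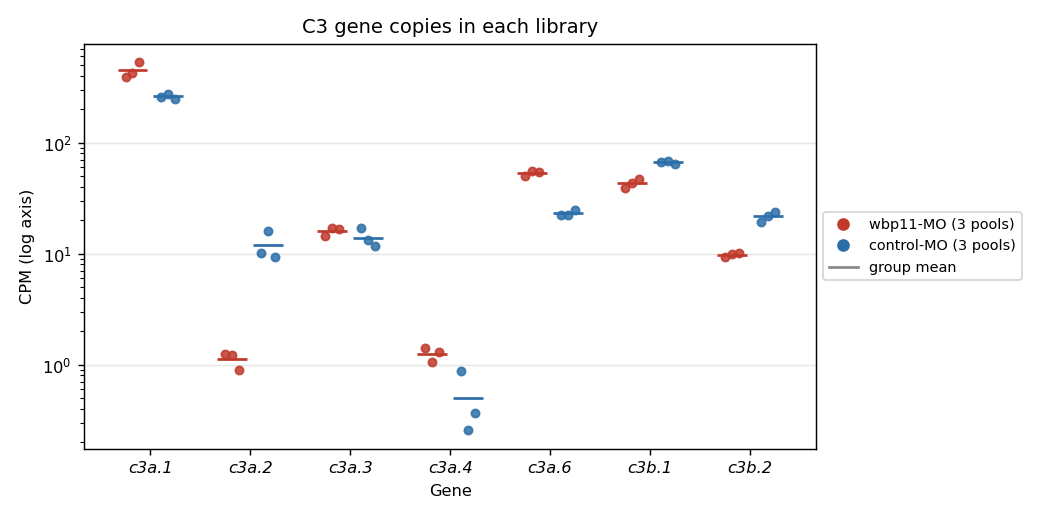
CPM on a log axis of 7 C3 copies in each library, wbp11-MO pools in red to the left of control-MO pools in blue, bars being means of 3; c3a.5, with 3 counts over the wbp11-MO and 6 over the control-MO libraries, is not drawn. c3a.1 and c3a.6 are higher in wbp11-MO pools, c3a.2, c3b.1 and c3b.2 are lower, and c3a.3 overlaps. c3a.4 is higher too, on 19, 13 and 16 counts in wbp11-MO and 12, 3 and 5 in control-MO libraries. It passed the filter on low counts through its wbp11-MO libraries, so a higher value was favoured in advance, and its call was lost in 5 of 14 alternatives.

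C4 joins C2 in the C3-cleaving enzyme of the antibody and lectin routes. The gene c4b (ENSDARG00000038424, chromosome 16, 16665203 to 16701718) rose. It stood at 57.9, 70.7 and 73.9 CPM in wbp11-MO pools, against 33.6, 36.2 and 27.0 CPM in control-MO pools, with no overlap. The log2 fold change was 1.07 ± 0.09 (SE, adjusted p = 1.8e-11 by edgeR). The other C4 gene, c4, was scarce and fell, with 20 counts over the wbp11-MO and 73 over the control-MO libraries (log2 fold change -1.81 ± 0.45 SE, edgeR adjusted p = 8.9e-04). So few wbp11-MO counts could not pass the filter on low counts on their own. Its entry to the test leaned on the control-MO libraries, which favoured a lower value in advance.

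C5, the relative of C3 and C4 whose cleavage starts the pore, was not called. Its gene c5 (ENSDARG00000021004, chromosome 5, 63458263 to 63509581) stood at 51.8, 54.9 and 54.2 CPM in wbp11-MO pools, against 51.5, 54.9 and 59.0 CPM in control-MO pools. The groups overlapped, the log2 fold change was -0.04 ± 0.07 (SE, adjusted p = 0.65 by edgeR), and without control-MO replicate 3 it was 0.012. The FPKM ratio of c3a.1 to c5 was 7.58, 7.83 and 9.83 in wbp11-MO and 5.04, 5.05 and 4.26 in control-MO pools.

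The genes of the pore proteins that follow C5 included the largest rise among the 11 records. C6 is the first protein to bind the C5 fragment. Its record c6.1 (chromosome 21, 20795472 to 20840723) had 419, 378 and 423 counts in the wbp11-MO libraries, against 27, 48 and 55 counts in the control-MO libraries. In CPM these were 31.9 ± 2.08 in wbp11-MO and 3.36 ± 1.2 in control-MO pools (SD, n = 3 each), 9.51-fold higher in wbp11-MO pools, with a log2 fold change of 3.26 ± 0.16 (SE, adjusted p = 3.1e-17 by edgeR), and 0.255% of all tested genes had a higher one. The record c6.2 (chromosome 21, 20914888 to 20932603) stood at 60.0, 63.0 and 56.6 CPM in wbp11-MO pools, against 14.2, 15.6 and 19.2 CPM in control-MO pools, with a log2 fold change of 1.87 ± 0.10 (SE, adjusted p = 5.3e-17 by edgeR). Both records were apart between the groups, but not by the same factor: the FPKM ratio of c6.1 to c6.2 was 0.685, 0.644 and 0.805 in wbp11-MO and 0.184, 0.348 and 0.278 in control-MO pools. Their sum rose by a log2 fold change of 2.22 ± 0.09 (SE, adjusted p = 7.1e-20 by edgeR).

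C7 is the protein through which the growing complex attaches to the membrane. The gene c7b (ENSDARG00000057121, chromosome 21, 20901505 to 20915291) stood at 13.1, 9.13 and 13.1 CPM in wbp11-MO pools, against 3.87, 4.60 and 5.54 CPM in control-MO pools. The groups were apart, wbp11-MO replicate 2 being the lowest of its group, and the log2 fold change was 1.34 ± 0.19 (SE, adjusted p = 3.5e-07 by edgeR). The end of c7b overlaps the end of c6.2, on the opposite strand, by 404 bases, and because the strand setting of the counting is not given, reads from that stretch cannot be assigned to either gene. The second C7 gene, c7a on chromosome 8, has no such overlap with them and also rose, to 23.0 ± 1.62 CPM in wbp11-MO, against 11.9 ± 0.26 CPM in control-MO pools (log2 fold change 0.95 ± 0.12 SE, edgeR adjusted p = 2.5e-08).

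None of the 3 C8 genes was called higher. C8 consists of an alpha, a beta and a gamma chain, and c8a (ENSDARG00000039516, chromosome 2, 1486822 to 1499584), the gene of the alpha chain, fell. It stood at 12.9, 14.2 and 15.6 CPM in wbp11-MO pools, against 30.7, 27.6 and 30.6 CPM in control-MO pools, 2.08-fold lower, with a log2 fold change of -1.06 ± 0.11 (SE, adjusted p = 6.4e-10 by edgeR). The beta chain gene c8b averaged 26.4 ± 4.76 CPM in wbp11-MO and 24.9 ± 2.67 CPM in control-MO pools (edgeR adjusted p = 0.56). The gamma chain gene c8g averaged 14.1 ± 2.2 CPM in wbp11-MO and 14.9 ± 1.95 CPM in control-MO pools (edgeR adjusted p = 0.60). The FPKM ratio of c8b to c8a was 1.61, 2.05 and 1.86 in wbp11-MO and 0.715, 0.984 and 0.832 in control-MO pools, and that of c8g to c8a was 1.54, 1.74 and 1.75 in wbp11-MO and 0.929, 0.793 and 0.832 in control-MO pools. The record of c8b spans 1478225 to 1518360 on the opposite strand and contains the whole of c8a, so reads from the stretches where exons coincide cannot be assigned to either gene.

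C9 polymerises into the wall of the pore. Its gene c9 (ENSDARG00000016319, chromosome 5, 32345187 to 32355289) stood at 190.5, 195.1 and 212.4 CPM in wbp11-MO pools, against 121.2, 116.5 and 118.8 CPM in control-MO pools. Every wbp11-MO pool was higher, and the log2 fold change was 0.75 ± 0.06 (SE, adjusted p = 4.5e-13 by edgeR). The FPKM ratio of c9 to c8a was 14.6, 13.6 and 13.5 in wbp11-MO and 3.90, 4.17 and 3.85 in control-MO pools.

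Levels per gene length were compared with the authors' FPKM values. In both groups c3a.1 and c9 led, with overlapping ranges, followed by cfb, at means of 86.0, 82.8 and 54.3 FPKM in wbp11-MO and 52.6, 51.9 and 19.3 FPKM in control-MO pools. Below them the order differed. In wbp11-MO pools c6.2 came next at 14.6 FPKM, then c4b, c6.1 and c5 between 10.2 and 11 FPKM with overlapping ranges, c8a at 5.97, c7b at 4.41, c3a.3 at 2.99 and c3a.2 at 0.211 FPKM. In control-MO pools c8a came next at 13.1 FPKM, then c5 at 11 FPKM, c4b at 5.54 and c6.2 at 4.20 FPKM with overlapping ranges. Last came c3a.3, c3a.2 and c7b, at 2.75, 2.36 and 1.83 FPKM, each overlapping the next, and c6.1 at 1.15 FPKM. The pore genes c6.1 and c6.2 were thus below c5 in control-MO pools, whereas in wbp11-MO pools c6.2 was above c5 and c6.1 overlapped it.

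The rest of the pathway was taken from a list of 57 symbols, of which 42 matched 43 records and 30 records passed the filter on low counts. Of these 30, 7 rose, 12 fell and 11 were not called, with a median log2 fold change of -0.20, where 30.5% of all genes rose and 31.2% fell. The rises include c3a.4, which passed the filter through its wbp11-MO libraries. Among 10 tested genes of initiation, 2 rose and 4 fell, or 20% and 40%. The protease gene masp1, which acts with the lectins, averaged 17.9 ± 1.62 CPM in wbp11-MO and 7.64 ± 0.56 CPM in control-MO pools (log2 fold change 1.23 ± 0.14 SE, edgeR adjusted p = 5.2e-09). The lectin gene mbl2 had 8 counts over the wbp11-MO and 182 over the control-MO libraries, with a log2 fold change of -4.42 ± 0.43 (SE, adjusted p = 2.4e-10 by edgeR). It passed the filter through its control-MO counts alone, and c4 leaned on its control-MO counts as well. A lower value was thus favoured in advance for both, and both are among the 4 falls. The C1q genes c1qa, c1qb and c1qc were too scarce to pass the filter. They had 18, 7 and 1 counts over the wbp11-MO and 24, 15 and 13 over the control-MO libraries. With no filter beyond 1 count, c1qc was called lower (log2 fold change -3.26, edgeR adjusted p = 0.042). In that setting c1qa and c1qb were not called (edgeR adjusted p = 0.67 and 0.39). Among 3 further genes of the pore, c7a rose, and c8b and c8g were not called.

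Of 12 tested regulators, 2 rose, or 16.7% against 30.5% of all genes, and 5 fell, or 41.7% against 31.2%. Without control-MO replicate 2 there were 4 rises among 13 tested, among them the carboxypeptidase gene cpn1 (ENSDARG00000005185). In that fit cpn1 passed the filter on low counts through its wbp11-MO counts alone, so a higher value was nearly fixed in advance. Clusterin, a plasma chaperone that can block pore assembly, is encoded by clu and stood at 86.1 ± 5.80 CPM in wbp11-MO, against 31.7 ± 1.28 CPM in control-MO pools (log2 fold change 1.44 ± 0.07 SE, edgeR adjusted p = 3.4e-17). The record CABZ01073265.1, described in the table as complement factor I, the protease that inactivates C3b, rose by a log2 fold change of 0.37 ± 0.08 (SE, adjusted p = 1.1e-04 by edgeR). The membrane inhibitor gene cd59 fell to 1.76 ± 0.25 CPM in wbp11-MO, against 8.87 ± 0.43 CPM in control-MO pools (log2 fold change -2.33 ± 0.23 SE, edgeR adjusted p = 2.9e-10). Vitronectin, which binds the forming pore in plasma, has the copies vtna and vtnb, and both fell: vtnb averaged 33.1 ± 2.45 CPM in wbp11-MO and 65.2 ± 0.17 CPM in control-MO pools, with a log2 fold change of -0.98. Factor H itself, from cfh, fell by 0.26 on the log2 scale (edgeR adjusted p = 7.2e-04). Of 4 receptor records 1 was tested, the leukocyte integrin gene itgb2, which fell by 0.67.

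**Figure D3:**
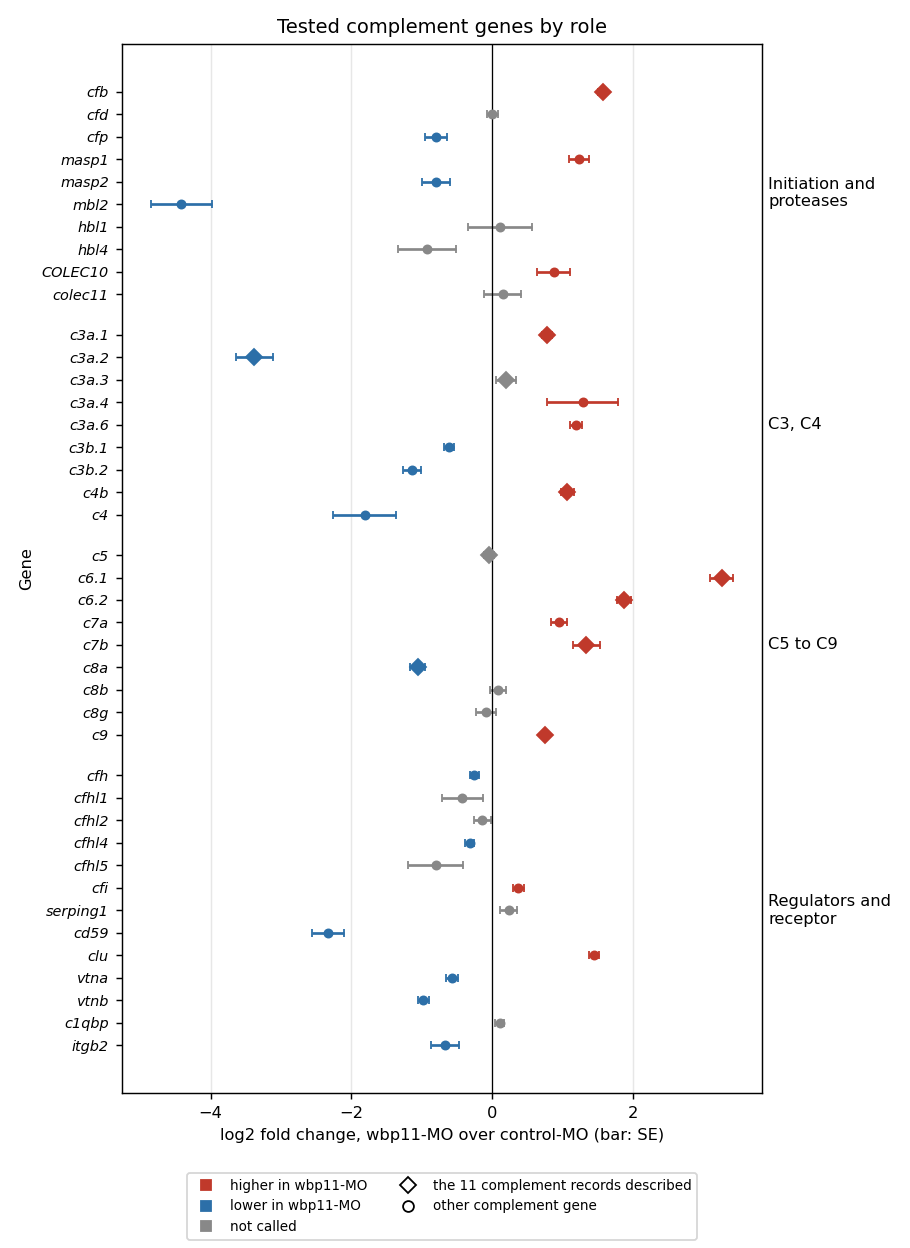
Log2 fold change of wbp11-MO over control-MO for the 41 tested complement genes by role, with bars of 1 SE; diamonds are the 11 named records and circles the other genes. Of the 41, 14 are higher (red) and 14 lower (blue), or 34.1% each, near the 30.5% and 31.2% of all genes, and 13 are not called (grey); the C6 and C7 genes are all on the higher side.

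The main source of plasma complement is the liver, and liver genes were measured beside it. Of 34 tested genes for hepatocyte and plasma proteins, 21 fell, or 61.8% against 31.2% of all genes, and 7 rose, or 20.6% against 30.5%. The median log2 fold change of the list was -0.46, where the 11 complement records had 2 falls, 7 rises and a median of 0.78. Both sets were chosen with earlier results of these data known. Over all 41 tested complement genes the median was 0.0026, with 34.1% higher and 34.1% lower. The fatty acid binding protein gene fabp10a, a defining marker of zebrafish hepatocytes, stood at 0.148, 0.162 and 0.649 CPM in wbp11-MO pools, against 19.5, 19.3 and 26.1 CPM in control-MO pools (log2 fold change -6.06 ± 0.28 SE, edgeR adjusted p = 5.1e-18, and -7.05 without wbp11-MO replicate 3). With so few wbp11-MO counts, fabp10a passed the filter on low counts through its control-MO pools alone. Of the other defining markers, the transferrin gene tfa, the liver transcription factor gene hnf4a and the apolipoprotein gene apoa2 had log2 fold changes of -0.88, -0.94 and -0.15 and were called, and serpina1 was not called (edgeR adjusted p = 0.31). The urate oxidase gene uox and the tryptophan dioxygenase gene tdo2a fell by 4.72 and 4.94 on the log2 scale. The ceruloplasmin gene cp, the apolipoprotein gene apobb.1 and the plasminogen gene plg rose by 0.66, 0.40 and 0.38. Summed over the list, levels ran from 10836 to 11944 CPM in wbp11-MO and from 11732 to 12613 CPM in control-MO pools. The part of liver cell number in the complement values was not tested.

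Of 18 tested acute-phase genes 6 were called higher, or 33.3% against 30.5% of all genes, and 8 lower, or 44.4% against 31.2% (median log2 fold change -0.28). The share that rose was thus near that of all genes. This list shares tfa, cp and serpina1 with the liver list, so the counts of the 2 lists are not independent. The fibrinogen genes fgb and fgg rose by 0.73 and 0.64 on the log2 scale, close to c3a.1 and c9. Antimicrobial leap2 and the secreted liver protein gene leg1.1 had log2 fold changes of -2.15 and -2.27. Interleukin 6, C/EBP and NF-kB signalling drives complement and acute-phase genes in mammals. Genes listed for it, inhibitors among them, rose in 21 of 27 tested cases, or 77.8% against 30.5% of all genes. They fell in 2, or 7.41% against 31.2%, with a median log2 fold change of 0.59. This list too was chosen with earlier results of these data known. Its shares thus describe the listed genes and not the signalling pathway. The rises numbered 17 without control-MO replicate 3 and also with library totals without TMM factors. The part of this signalling in the complement values was not tested. The feedback inhibitor gene socs3b averaged 86.8 ± 7.39 CPM in wbp11-MO and 18.5 ± 0.32 CPM in control-MO pools (log2 fold change 2.23 ± 0.08 SE, edgeR adjusted p = 9.9e-21), and the receptor gene il6st averaged 173.6 ± 3.60 CPM in wbp11-MO and 65.8 ± 4.24 CPM in control-MO pools (log2 fold change 1.40 ± 0.06 SE). The related gene socs3a rose by 2.1. The C/EBP gene cebpa fell by 0.80 and the receptor gene il6r by 0.71, and the call of il6r was lost without wbp11-MO replicate 3, which left 1 fall in the list (adjusted p = 0.057 by edgeR, where all alternatives ranged from 8.7e-04 to 0.057).

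Immune cells, which also make some complement proteins, were followed through their marker genes. Of 16 tested macrophage genes 5 rose, or 31.2% against 30.5% of all genes, and 7 fell, or 43.8% against 31.2%. Without wbp11-MO replicate 1, wbp11-MO replicate 2 or control-MO replicate 3 the rises numbered 3. The summed level of the list ran from 104.6 to 113.9 CPM in wbp11-MO and from 102.4 to 112.2 CPM in control-MO pools. By adjusted p, the leading rises were mpeg1.2, ccl34a.4 and irf8, with log2 fold changes of 1.94, 1.62 and 1.09, and the leading falls were lgals3bpb, mpeg1.1 and lcp1, with -1.92, -0.77 and -0.52. Among the defining macrophage markers, mpeg1.1 fell by 0.77 on the log2 scale, marco rose by 0.62, and csf1ra and mfap4 were not called. Of 11 tested neutrophil genes 3 rose and 3 fell, or 27.3% each way against 30.5% and 31.2% of all genes, with a median log2 fold change of -0.26. Among the falls, il6r is counted in the signalling list as well, and without wbp11-MO replicate 3 the neutrophil falls numbered 2. The summed level of the list ran from 213 to 287.6 CPM in wbp11-MO and from 91.8 to 99.2 CPM in control-MO pools. The defining marker csf3r was not called, and the granule genes mpx and npsn fell by 1.21 and 1.31 on the log2 scale. The 3 rises were metalloproteinase genes that other tissues also express. Of these, mmp9 averaged 143.2 CPM in wbp11-MO and 9.98 CPM in control-MO pools, with a log2 fold change of 3.84, and it made the largest part of the difference in the summed level. The 2 records of mmp13a rose by 3.48 and 1.32, the second by 0.59 without wbp11-MO replicate 2. The defining marker lyz was near 0 in both groups, with means of 0.0246 CPM in wbp11-MO and 0.0486 CPM in control-MO pools. Of 11 intestine genes 3 rose, or 27.3%, and 7 fell, or 63.6%, and without wbp11-MO replicate 3 there was 1 rise. Of 10 endothelial genes 2 rose and 2 fell, with 1 rise when library totals were used without TMM factors, and of 10 epidermal genes 4 rose and 4 fell. Over all genes these shares were 30.5% for rises and 31.2% for falls. The part of these cells in the complement values was not tested.

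**Figure D4:**
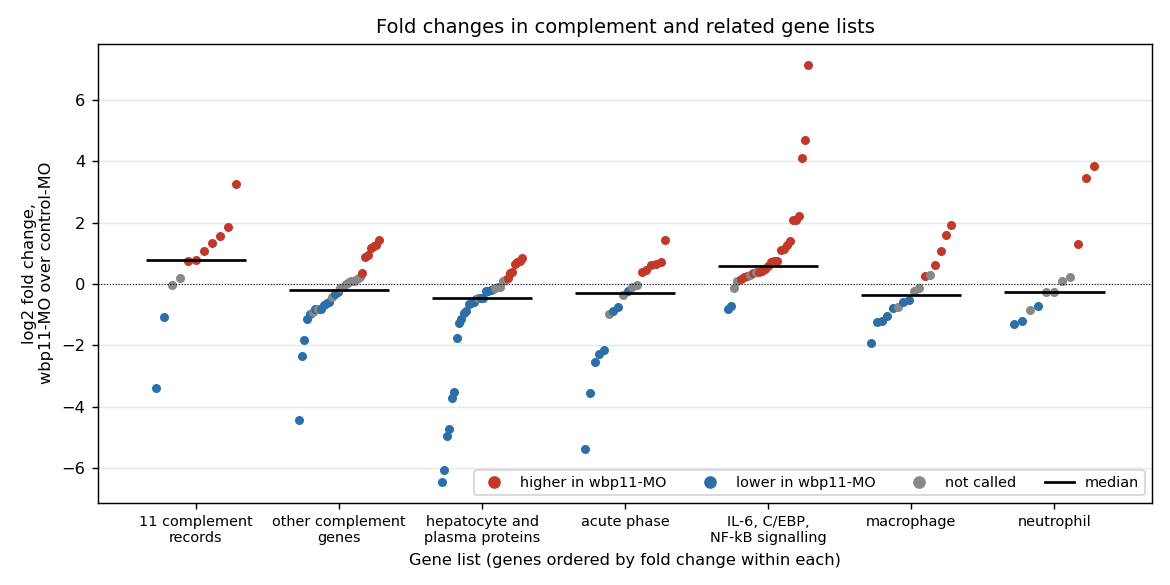
Log2 fold changes of wbp11-MO over control-MO in 7 gene lists, 1 point per tested gene ordered within its list, with black bars for medians. Medians are above 0 for the 11 complement records (0.78) and the signalling list (0.59), and between -0.46 and -0.20 for the other 5 lists.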

How the data were processed

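Poly(A) RNA sequencing was done on 3 wbp11-MO and 3 control-MO pools of 50 embryos. The deposited table gives raw counts per gene, per the file headers; the submitters' processing notes name HTSeq 2.0.5, FastQC 0.12.1 and build GRCz11. How reads were aligned, whether strand was used and what was done with reads of several matches is not given in the sources used here. The deposited FPKM values were made by the authors from those counts and gene lengths and served for comparing levels between genes; recomputing them from both gave a largest relative difference of 5.2e-15. Nothing says whether pools came from separate clutches, so p-values measure the spread between these pools.

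Counts were fitted in R 4.3.3 with edgeR 4.0.16 (filterByExpr, TMM, quasi-likelihood F-test, no replicate block), adjusted by Benjamini-Hochberg over all 20012 tested genes, threshold 0.05. Each SE is the log2 fold change over the root of F, and CPM use TMM-scaled totals. Libraries of a group differed by more than sampling noise (chi-square per degree of freedom 2.63 to 4.03). Totals of 11219706 to 13669995 counts leave genes with few counts imprecise. The complement genes and all lists were chosen with earlier results of these data known. Members were matched by the table's name alone, other list genes also by gene identifiers. Named genes are all members, defining cell markers, wbp11 and the called list genes with the smallest adjusted p in each direction. Of the last there are up to 5 for other complement genes and 3 for liver, acute-phase, signalling and immune lists. Other lists have up to 1, though some of these are given as counts alone. Added after their values were seen were c3a.4, c3a.5, c4, cfd, cfp, cfh, c8b, c8g, vtna, itgb2, hbl4, serping1, cfhl1 and the C1q genes. On simulated counts for wbp11-MO against control-MO over 20012 genes, edgeR found 35 of the 67 genes set to differ 1.5-fold, 63 of the 67 set at 2-fold and 62 of the 66 set at 4-fold. Among 19451 genes left alone that were tested again it called 9. The simulation changed far fewer genes than the 61.7% called in the data. Its counts are thus a check of the code and not the error rates of this comparison.

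Alternatives were RLE and upper-quartile factors, other count filters, DESeq2 1.42.0, limma-voom (limma 3.58.1), a replicate block, omission of single libraries, summing gene copies and, chosen after seeing the data, library totals without TMM factors.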

Additional observations from a re-analysis of the deposited data

How the results depend on the processing

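Under the 14 alternatives between 11528 and 12720 genes were called, against 12349. Of the 11 complement records 7 or 8 were called higher and 2 lower in each. The balance of rises and falls over all genes moved with the scaling: library totals without TMM factors gave 5243 higher and 6897 lower. The median log2 fold change was then -0.070 over all tested genes and 0.71 over the 11 records. Of the other complement genes 6 to 8 were called higher and 12 to 14 lower under the 14 alternatives. The rises include cpn1 under the alternatives that tested it. Where it had passed the filter on low counts, a higher value was nearly fixed in advance. The 9 called records kept their direction and their call under all 14 where copies stay apart, cfb with log2 fold changes from 1.5 to 1.62, c6.1 from 2.97 to 3.42 and c3a.2 from -3.52 to -3.12. The summed c3a copies gave 0.57 to 0.78. The record that gained a call was c3a.3, at 0.36 without control-MO replicate 1. Summing the c3a copies turned c3a.2 to 0.70, by construction, since c3a.1 holds most of the counts. Leaving out single libraries gave c5 values from -0.089 to 0.012, the sign turning without control-MO replicate 3, and c5 was called under none of the alternatives. Of genes outside the 11 records, c3a.4 lost its call with DESeq2 and without wbp11-MO replicate 1 or 3 or control-MO replicate 2 or 3 (edgeR or DESeq2 adjusted p up to 0.12). The initiation gene hbl4 was not called in the main fit (log2 fold change -0.92, edgeR adjusted p = 0.052). It was called lower under 8 of the 14 alternatives. The regulator genes serping1 and cfhl1, not called in the main fit, each gained a call under 1 alternative.

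With a replicate block 12096 genes were called, the same 7 complement records higher and 2 lower. Deviations from the group means of same-numbered pools correlated at -0.022, -0.038 and 0.0098, and not every library correlated best with its own number. With so few pools in a group, these deviations depend on each other. Such values cannot show whether same-numbered pools shared more than a number, such as a clutch. Depth limits the genes with few counts, among them the C1q genes and the receptor genes.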

Other observations

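Some complement genes stood outside the lists and were picked out after their values were seen. The gene bfb, which the table describes as a complement component and which lies close to cfb on chromosome 21, went opposite to it: bfb averaged 1.91 ± 0.44 CPM in wbp11-MO and 6.88 ± 2.31 CPM in control-MO pools, with a log2 fold change of -1.85 ± 0.27 (SE, adjusted p = 6.3e-07 by edgeR). The factor B-like gene cfbl, in the same stretch, averaged 3.03 CPM in wbp11-MO and 3.31 CPM in control-MO pools and was not called (edgeR adjusted p = 0.67). The zebrafish regulator of complement activation genes rca2.1 and rca2.2 lie on chromosome 23. There rca2.1 averaged 70.5 ± 3.21 CPM in wbp11-MO and 61.3 ± 4.69 CPM in control-MO pools (log2 fold change 0.20, edgeR adjusted p = 0.011), and rca2.2 averaged 0.130 CPM in wbp11-MO and 1.11 CPM in control-MO pools (log2 fold change -3.01, edgeR adjusted p = 1.9e-04). But rca2.2 had only 2, 1 and 2 counts in wbp11-MO and 19, 10 and 15 in control-MO libraries. It passed the filter on low counts through its control-MO counts alone, so a lower value was nearly fixed in advance.

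Among records that did not pass the filter on low counts, cpn1 (ENSDARG00000005185), the gene of a carboxypeptidase that trims the small C3 and C5 fragments, had 30 counts over the wbp11-MO and 3 over the control-MO libraries. It overlaps a second record of the same name and entered the test only under 5 alternatives. With no filter beyond 1 count its log2 fold change was 3.2 (edgeR adjusted p = 0.0024). Leaving out wbp11-MO replicate 2 or any 1 of the control-MO libraries gave 2.73 to 4.01. In those fits it passed the filter through its wbp11-MO counts alone. A higher value there was nearly fixed in advance and is no support for a rise. The C3a receptor record C3AR1 had 27 counts over the wbp11-MO and 12 over the control-MO libraries. With no filter beyond 1 count C3AR1 was not called (log2 fold change 1.18, edgeR adjusted p = 0.18). The receptor genes c5ar1 and itgam were not called there either (edgeR adjusted p = 0.82 and 0.88). Both cpn1 and C3AR1 were picked out after their values were seen.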
